A study of Schizosaccharomyces pombe with 40 samples.

Results

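Deletion of ebp1 in fission yeast (Schizosaccharomyces pombe, strain ED666) was compared with wild type over all genes of the deposited expression table. The libraries were chosen by their strain and genotype, without use of any measured value, and they are 3 ebp1Δ and 3 wild-type libraries among the 17 RNA libraries and 40 samples of the series. The series studied the RNA polymerase II elongation factor ELL with its partners EAF and Ebp1, by polyA RNA sequencing and by chromatin immunoprecipitation. The samples of that second kind were not analysed here. The ebp1Δ cells carry delta-ebp1::kanMX6, in which a drug resistance cassette takes the place of ebp1 (SPAC6G9.15c). A second deletion in the same strain, delta-eaf1::kanMX6 (3 libraries, called eaf1Δ), serves for comparison. Cells of all these groups, wild type included, are h+, the mating type of P cells, and carry the alleles ade6-M210, leu1-32 and ura4-D18, and all were collected in mid log phase from rich medium. A further pair of ED666 wild-type libraries, whose replicates have the suffix b in the labels (called ED666b), shares the genotype. The labels do not say how many transformants stand behind a deletion, or whether replicates came from separate cultures. The spread behind the p-values was estimated over all 17 RNA libraries. Besides the groups above these hold ell1 deletions, labelled ED666b and Pem2, and wild type of Pem2, another strain. The p-values therefore speak of the spread within the groups of those 17 libraries alone, which may be technical.

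ELL proteins bind RNA polymerase II and raise the rate at which it transcribes by shortening pauses, and EAF proteins bind ELL and raise its activity. In animal cells both are parts of super elongation complexes, which help release paused polymerase at genes that must be switched on quickly, such as stress and developmental genes. In fission yeast Ell1 and Eaf1 form a pair, and Ebp1 was studied beside them as a further associated protein. The genes taken up below belong to programmes that respond to the state of the cell: the core environmental stress response under the kinase Sty1 and the factor Atf1, glucose and phosphate acquisition, cell separation, and meiosis.

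The unit of all levels is scaled CPM, as deposited for each library, and within a library 1 read counts for the same amount in every gene. Depth was 6906909 to 8113270 reads in ebp1Δ and 6486554 to 7027226 in wild type, and a count of 3 reads equalled 0.369 to 0.456 scaled CPM, a floor that covers counting error only. Wild-type replicate 3 stood apart before any comparison. Of 5451 genes at a mean of 5 scaled CPM or more it was over 2-fold above both other wild-type libraries in 84 and over 2-fold below both in 34, whereas no other ebp1Δ or wild-type library passed 18 in either direction. On the log2 scale it correlated with the other wild-type libraries at r = 0.980 across genes, against 0.994 between those, and ebp1Δ libraries correlated at 0.991 to 0.995. Counts and calls that turn on it are given with and without it. The transcript of ura4, removed by ura4-D18, was at 0 in every library. The summed level of 3 P-cell markers (map2, map3, map4) was 62.6 to 67.4 in ebp1Δ and 61.0 to 70.3 in wild type. That of 5 M-cell markers (mfm1, mfm2, mfm3, mam1, mam2) was 53.1 to 61.5 in ebp1Δ and 55.9 to 65.4 in wild type, so the ranges overlapped for both. Most of the M-cell sum was mam1 alone, at 45.8 to 51.4 in ebp1Δ and 48.0 to 53.6 in wild type, so it mainly reports that gene. In bulk RNA, fewer cells of a kind and less RNA per cell cannot be told apart.

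The deleted gene was measured first. The ebp1 transcript stood at 9.84, 10.2 and 8.28 scaled CPM in the ebp1Δ libraries, against 62.9, 67.4 and 60.9 in eaf1Δ, 61.2, 66.3 and 79.6 in wild type and 84.3 and 74.7 in ED666b wild type. Every ebp1Δ library lay far below every other library, which is the check of the column code used for ebp1Δ in the table, since that code is in no label. The log2 fold change of ebp1Δ over wild type was -2.74 (SE 0.10, limma adjusted p = 8.87e-09). A residual level well above the floor remained, and the sources used here do not say which part of the gene was removed. The partner genes eaf1 (0.01, limma adjusted p = 0.973) and ell1 (0.02, limma adjusted p = 0.972) were not called. None of the 6 genes next to ebp1 in gene order was called either. These are puf4, xrc4, bqt1, SPAC652.01, SPAPB1E7.01c and SPNCRNA.899, and the largest difference among them was -0.38 in xrc4, which encodes a DNA end-joining factor (SE 0.12, limma adjusted p = 0.119).

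More transcripts fell than rose in ebp1Δ. Of 6160 genes tested, 226 were called by limma at a threshold of 0.05 on Benjamini-Hochberg adjusted p-values, 3.67% of the genes tested. Among these, 57 rose (0.925% of the genes tested) and 169 fell (2.74%). Falls were also larger: 62 genes fell by 2-fold or more and 3 rose by as much, with a median log2 fold change of -0.78 among those that fell and 0.59 among those that rose. The median over all genes was 0.01. In all 226 the ebp1Δ libraries lay on one side of every wild-type library, as they did in 7.73% of tested genes above and 9.69% below. Coding genes were called in 2.36% of 4963 tested (29 rose, 88 fell). Antisense RNAs were called in 8.80% of 568 (13 rose, 37 fell) and other noncoding RNAs in 9.12% of 537 (13 rose, 36 fell). The balance of antisense calls was not stable: 23 rose and 30 fell under quantile normalization, 32 rose and 37 fell without wild-type replicate 3, and 6 rose and 23 fell by edgeR. For other noncoding RNAs the same alternatives gave 16 and 29, 22 and 38, and 5 and 28. When coding genes were split by length into 4 groups of like size, the share called was 2.09% for genes of up to 1232 bases and 2.74% for those of 2650 bases and more, with medians of 0.02 in both. The count rests on which libraries enter: it was 368 (143 rose, 225 fell) without wild-type replicate 3, and 134 and 141 without ebp1Δ replicate 2 or 3. With the 6 libraries fitted alone, 65 genes were called, of which 59 fell. Under quantile normalization, in place of the deposited scaling, 84 rose and 152 fell.

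**Figure D1:**
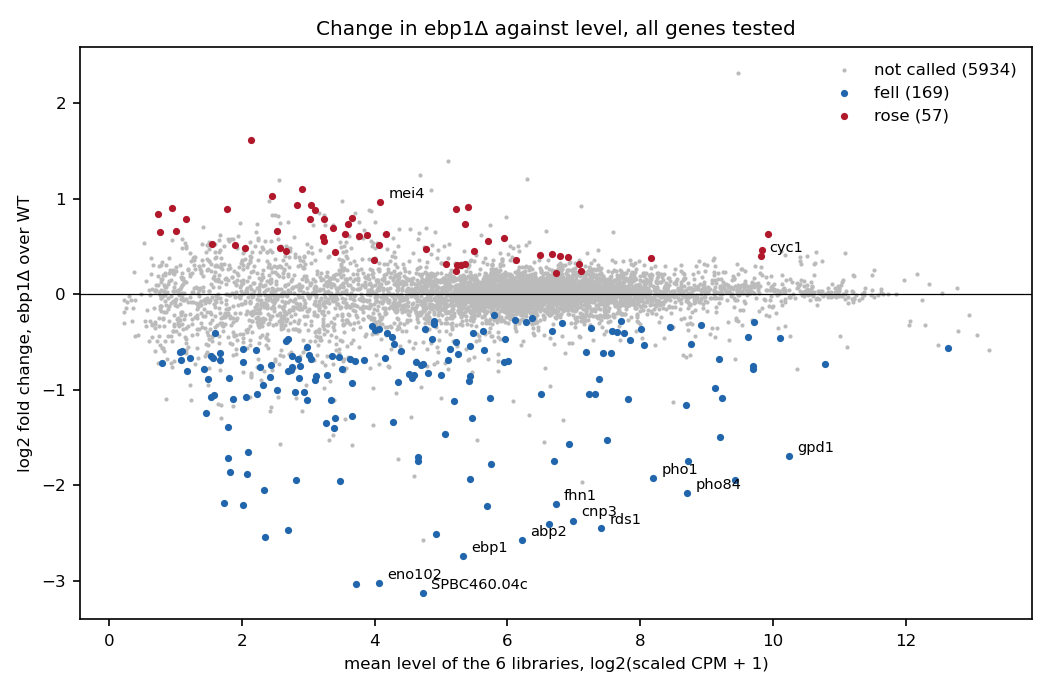
Each point is 1 of the 6160 genes tested, at its mean level over the 3 ebp1Δ and 3 wild-type libraries on the log2(scaled CPM + 1) scale (horizontal axis) and its log2 fold change of ebp1Δ over wild type (vertical axis). The 169 genes that fell reach below -3, whereas the 57 that rose lie mostly under 1, and the uncalled gene highest on the plot is ght5 (2.32).

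Of the deepest falls, 2 belonged to genes close together on chromosome II. The gene abp2 encodes a protein that binds replication origins, and cnp3 encodes CENP-C, a centromere protein on which the kinetochore is built. The abp2 transcript was at 19.9, 21.7 and 19.4 scaled CPM in ebp1Δ, against 77.7, 57.8 and 52.5 in eaf1Δ, 119, 119 and 141 in wild type and 177 and 193 in ED666b wild type. The cnp3 transcript was at 39.5, 37.5 and 42.7 in ebp1Δ, against 122, 105 and 93.4 in eaf1Δ, 179, 202 and 257 in wild type and 343 and 363 in ED666b wild type. For both genes all libraries of a group lay together, lowest in ebp1Δ, then eaf1Δ, then wild type, with no overlap between ebp1Δ and eaf1Δ. The log2 fold change over wild type was -2.57 for abp2 (SE 0.12, limma adjusted p = 7.99e-08) and -2.37 for cnp3 (SE 0.14, limma adjusted p = 8.26e-07). Against eaf1Δ the differences were -1.56 (limma adjusted p = 2.29e-05) and -1.39 (limma adjusted p = 1.93e-04). The noncoding RNAs SPNCRNA.1672 (-0.72) and SPNCRNA.1673 (-3.03), which lie between them, fell too. The genes on either side, mrpl44 (-0.06) and mak10 (0.18), were not called, so the called genes ended on both sides. The sources used here do not say whether reads were counted by strand, and reads of overlapping or antisense transcripts cannot be told apart.

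**Figure D2:**
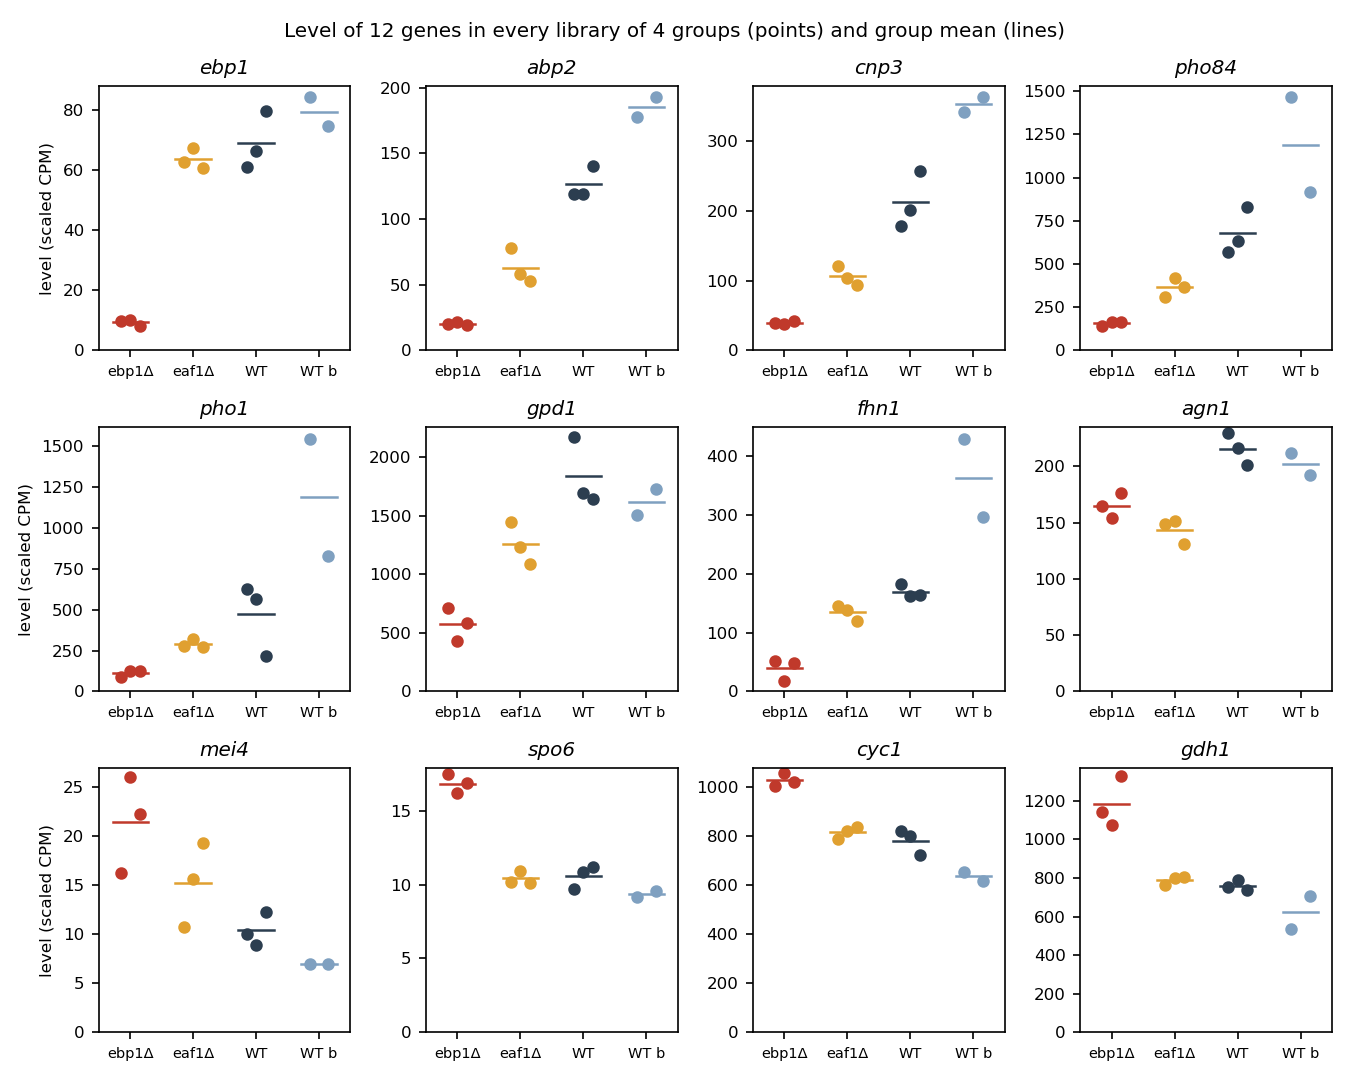
Each panel shows 1 gene and each point 1 library, in scaled CPM on a linear axis from 0, with the group mean as a line. Groups are ebp1Δ, eaf1Δ and wild type of ED666 (WT, 3 libraries each) and ED666b wild type (WT b, 2 libraries). For ebp1, abp2, cnp3, pho84, pho1, gpd1, fhn1 and agn1 every ebp1Δ point lies below every WT point, and for mei4, spo6, cyc1 and gdh1 above.

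Other called genes also stood together. By a rule that joins called genes of 1 direction with at most 2 uncalled genes between them, 7 runs of 3 or more genes were found, all of genes that fell, 1 on chromosome I and 6 on chromosome II. The share of tested genes called was alike on the chromosomes, at 3.47% on I, 3.57% on II and 3.77% on III. Falls numbered 74 on I, 61 on II and 27 on III. Whether runs gather on 1 chromosome was not tested. The run on chromosome I holds SPNCRNA.777, SPNCRNA.779 to SPNCRNA.782, SPNCRNA.784 and hsr1, which encodes a DNA-binding transcription factor. SPNCRNA.779 was at 0.984, 1.08 and 0.857 scaled CPM in ebp1Δ, against 6.83, 5.02 and 3.82 in eaf1Δ and 10.8, 10.4 and 8.76 in wild type, and SPNCRNA.780 was at or under the floor of 3 reads in each ebp1Δ library, against 6.23, 2.83 and 4.38 in wild type. The hsr1 transcript was at 37.2, 31.8 and 30.7 in ebp1Δ, against 56.6, 42.5 and 59.6 in eaf1Δ and 66.5, 67.4 and 81.6 in wild type, which differ by -1.09 on the log2 scale (SE 0.13, limma adjusted p = 3.42e-04). Its level in ebp1Δ was the lowest of the 3 groups without overlap. The flanking genes pcs2 (-0.09) and snt2 (0.21) were not called, nor were SPNCRNA.778 (-0.78) and SPNCRNA.783 (-0.29) inside the run. Calls of SPNCRNA.777 and SPNCRNA.784 held in 5 and 1 of the 6 fits that left out 1 library. Those of the other called members held in all 6.

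The first run on chromosome II, of 6 called genes, holds the cysteine transporter gene SPBPB10D8.01, the L-asparaginase gene SPBPB21E7.09, the arylsulfatase gene SPBPB10D8.02c, SPBPB10D8.03, SPBPB21E7.08 and SPNCRNA.1306. SPBPB10D8.01 was at 18.2, 21.4 and 31.7 scaled CPM in ebp1Δ, against 71.1, 77.9 and 73.2 in eaf1Δ, 78.5, 85.8 and 81.3 in wild type and 136 and 149.7 in ED666b wild type. SPBPB10D8.02c was at 16.4, 12.7 and 24.4 in ebp1Δ, against 76.02, 84.3 and 77.6 in eaf1Δ and 78.7, 79.3 and 93.8 in wild type. In both, eaf1Δ lay close to wild type and ebp1Δ well below both. The log2 fold changes over wild type were -1.78 (SE 0.15, limma adjusted p = 2.51e-05) and -2.22 (SE 0.29, limma adjusted p = 8.24e-04), and all 6 genes were also lower than in eaf1Δ by the same test. The neighbours SPBPB21E7.08-antisense-1 (-0.23) and SPBPB10D8.04c (0.07) were not called against wild type. Just beyond the first of these, aes1 (-0.77, limma adjusted p = 0.262) was not called against wild type either. It was lower than in eaf1Δ, however (-1.40, limma adjusted p = 0.0417). The identifiers SPBC460.01c to SPBC460.05 gave a similar group, joined after their values were seen and absent from the gene order used here. SPBC460.04c was at 5.54, 2.43 and 5.999 in ebp1Δ, against 34.2, 35.7 and 31.5 in eaf1Δ, 46.3, 42.5 and 49.99 in wild type and 21.6 and 47.7 in ED666b wild type, the deepest fall of all (-3.13, SE 0.34, limma adjusted p = 2.23e-04). SPBC460.05 (-2.51), SPBC460.01c (-0.91) and vba2 (-0.70) fell as well, and SPBC460.02c (-0.29) was not called.

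Another run joins SPBC1685.17, SPBC1685.12c-antisense-1 and fhn1, which encodes an assembly protein of eisosomes, the furrows of the plasma membrane. The antisense RNA was low, at a mean of 0.603 scaled CPM in ebp1Δ and 2.87 in wild type. SPBC1685.12c itself, not placed in this run by the gene order used here, also fell and kept its call in 18 of 18 alternative fits. The fhn1 transcript was at 52.3, 18.3 and 48.6 scaled CPM in ebp1Δ, against 146, 139 and 119.6 in eaf1Δ, 182, 163 and 164 in wild type and 429 and 297 in ED666b wild type. Every ebp1Δ library was below all others, and replicate 2 was the lowest of them. The log2 fold change was -2.20 over wild type (SE 0.29, limma adjusted p = 8.27e-04) and -1.87 over eaf1Δ (limma adjusted p = 0.00418). The next run joins erg1, for the sterol enzyme squalene epoxidase (-0.40), SPBC713.13-antisense-1 (-1.08) and pmp3, for a plasma membrane proteolipid (-0.68). A further run joins mbx2, for a MADS-box transcription factor of flocculin genes (-0.71), pop7, for a subunit of ribonucleases P and MRP (-0.27), and rng9 (-0.36), where the calls of pop7 and rng9 held in 2 and 3 of the 6 fits that left out 1 library.

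**Figure D3:**
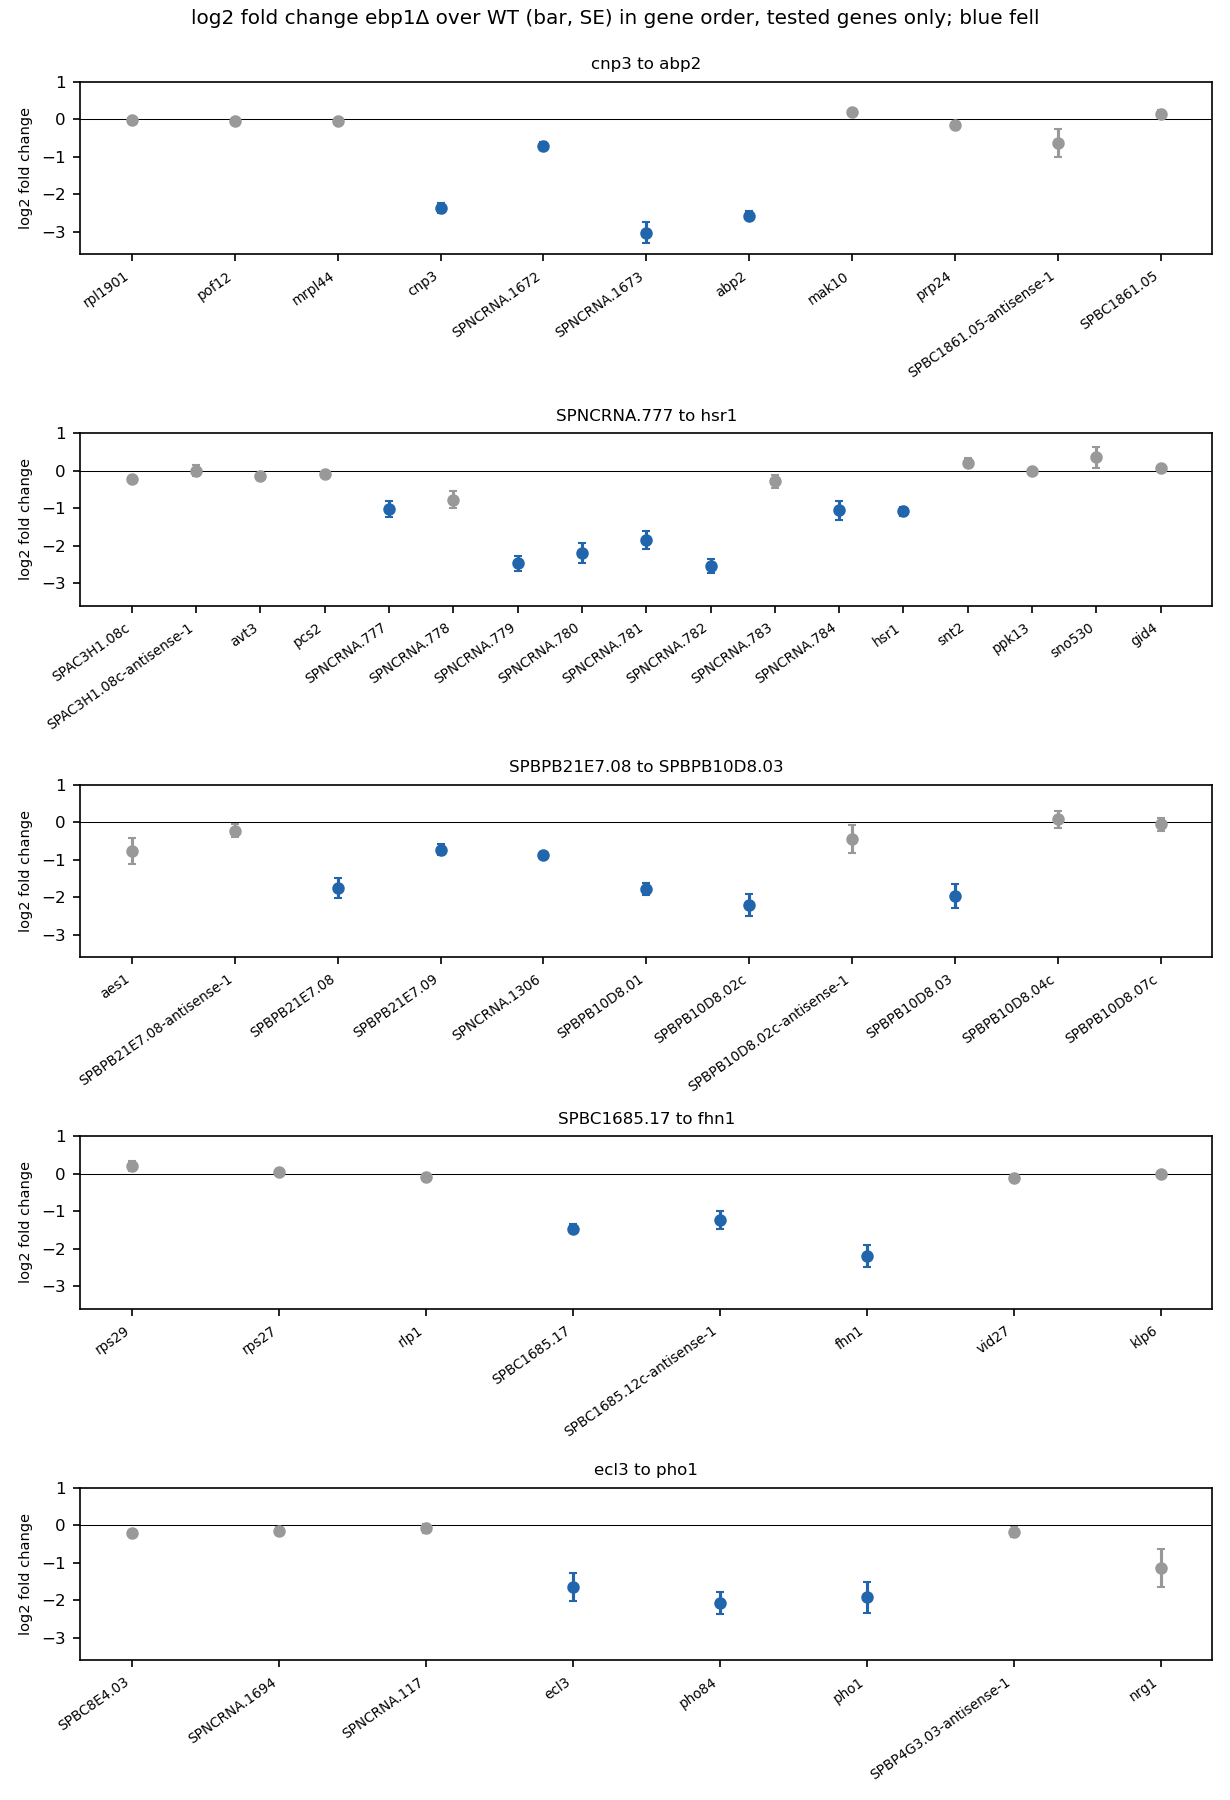
Tested genes in gene order along 5 of the 7 runs, with the log2 fold change of ebp1Δ over wild type and its SE on the vertical axis. Genes that fell by limma are blue and uncalled genes grey. In each panel the first tested gene beyond either end of the run is uncalled and near 0 (-0.23 to 0.21). Further out, aes1 (-0.77) and nrg1 (-1.15) lie below 0 and are uncalled too.

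The remaining run on chromosome II holds the phosphate genes pho84 and pho1 beside ecl3. Pho84 is a transporter of inorganic phosphate and Pho1 the main secreted acid phosphatase, both induced when phosphate is scarce, and Ecl3 belongs to a family of small proteins that extend life span in the stationary phase. The pho84 transcript was at 141, 166 and 167 scaled CPM in ebp1Δ, against 312, 419 and 365 in eaf1Δ, 572, 634 and 827 in wild type and 1464 and 917 in ED666b wild type. The pho1 transcript was at 89.3, 124 and 125 in ebp1Δ, against 279, 318 and 273 in eaf1Δ, 627, 564 and 219 in wild type and 1543 and 827 in ED666b wild type. For both genes ebp1Δ was lowest, eaf1Δ intermediate by group mean and ED666b highest, with wild-type replicate 3 below eaf1Δ in pho1. The log2 fold change was -2.08 for pho84 (SE 0.30, limma adjusted p = 0.00156), a call that held in every fit. For pho1 it was -1.93 (SE 0.41, limma adjusted p = 0.0193), called in 1 of the 6 fits that left out 1 library. Against eaf1Δ neither passed (pho84 -1.20, limma adjusted p = 0.0519, and pho1 -1.37, limma adjusted p = 0.101). Of 9 phosphate acquisition genes tested, 2 fell and 0 rose, with a median of 0.09, and -0.01 without wild-type replicate 3. Over all genes tested 2.74% fell. The other gene of the inducible set, tgp1, a transporter of glycerophosphodiesters, was not called (-0.13), nor was pho7, the activator of all of them (0.20).

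Among core stress response genes the called members all fell in ebp1Δ. Of 36 tested, 9 fell and 0 rose, 31 had a negative log2 fold change, and the median was -0.47. In 14 of them every ebp1Δ library lay below every wild-type library. Over all genes tested 2.74% fell and 9.69% lay below in this way. With the 6 libraries fitted alone 3 members fell, and with the 9 ED666 libraries 4. The gene gpd1, for the glycerol-3-phosphate dehydrogenase that makes the osmolyte glycerol, was at 715, 433 and 579.6 scaled CPM in ebp1Δ, against 1446, 1234 and 1088 in eaf1Δ, 2169, 1696 and 1644 in wild type and 1501 and 1725 in ED666b wild type. The quinone oxidoreductase gene obr1 was at 366, 292 and 263 in ebp1Δ, against 792, 604 and 516 in eaf1Δ, 1021, 822 and 758 in wild type and 840.1 and 661 in ED666b wild type. In both genes ebp1Δ lay below every library of the other groups. The log2 fold changes were -1.69 (SE 0.18, limma adjusted p = 1.54e-04) and -1.50 (SE 0.17, limma adjusted p = 3.31e-04), and both were also lower than in eaf1Δ (-1.14 and -1.04, limma adjusted p = 0.00385 and 0.00624).

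The other stress genes that fell varied more between libraries. The rds1 transcript was at 77.9, 29.7 and 52.3 scaled CPM in ebp1Δ, against 147, 66.7 and 66.8 in eaf1Δ, 309.6, 187 and 358 in wild type and 170.2 and 331 in ED666b wild type, a difference of -2.45 on the log2 scale (SE 0.44, limma adjusted p = 0.00683). The catalase gene ctt1, whose product breaks down hydrogen peroxide, was at 85.99, 39.4 and 54.4 in ebp1Δ, against 279.7, 127 and 140.2 in wild type (-1.57, limma adjusted p = 0.0136). Replicate 1 was the highest library in both groups for ctt1, and the call held in 4 of the 6 fits that left out 1 library. The transcription factor gene SPAC2H10.01 (-2.41), hsp9 (-1.75), hsp3101, for a glyoxalase (-1.11), gst2, for a glutathione transferase (-1.10), and sro1 (-0.28) also fell. The calls of SPAC2H10.01 and sro1 held in 1 of those 6 fits each, that of gst2 in 3 and that of hsp9 in 2, and hsp9 was not called without wild-type replicate 3 (limma adjusted p = 0.0566). Without that library 9 members of the list fell and 1 rose, tms1 (0.28), with a median of -0.30. The gene of the regulator Atf1 itself differed by -0.21 and was not called (limma adjusted p = 0.244). Heat shock chaperones gave no call: of 16 tested, 0 rose and 0 fell, with a median of -0.00 (-0.13 without wild-type replicate 3), and hsp16 was at 57.6, 18.3 and 46.6 in ebp1Δ, against 53.6, 53.98 and 245 in wild type, where replicate 3 alone was high.

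**Figure D4:**
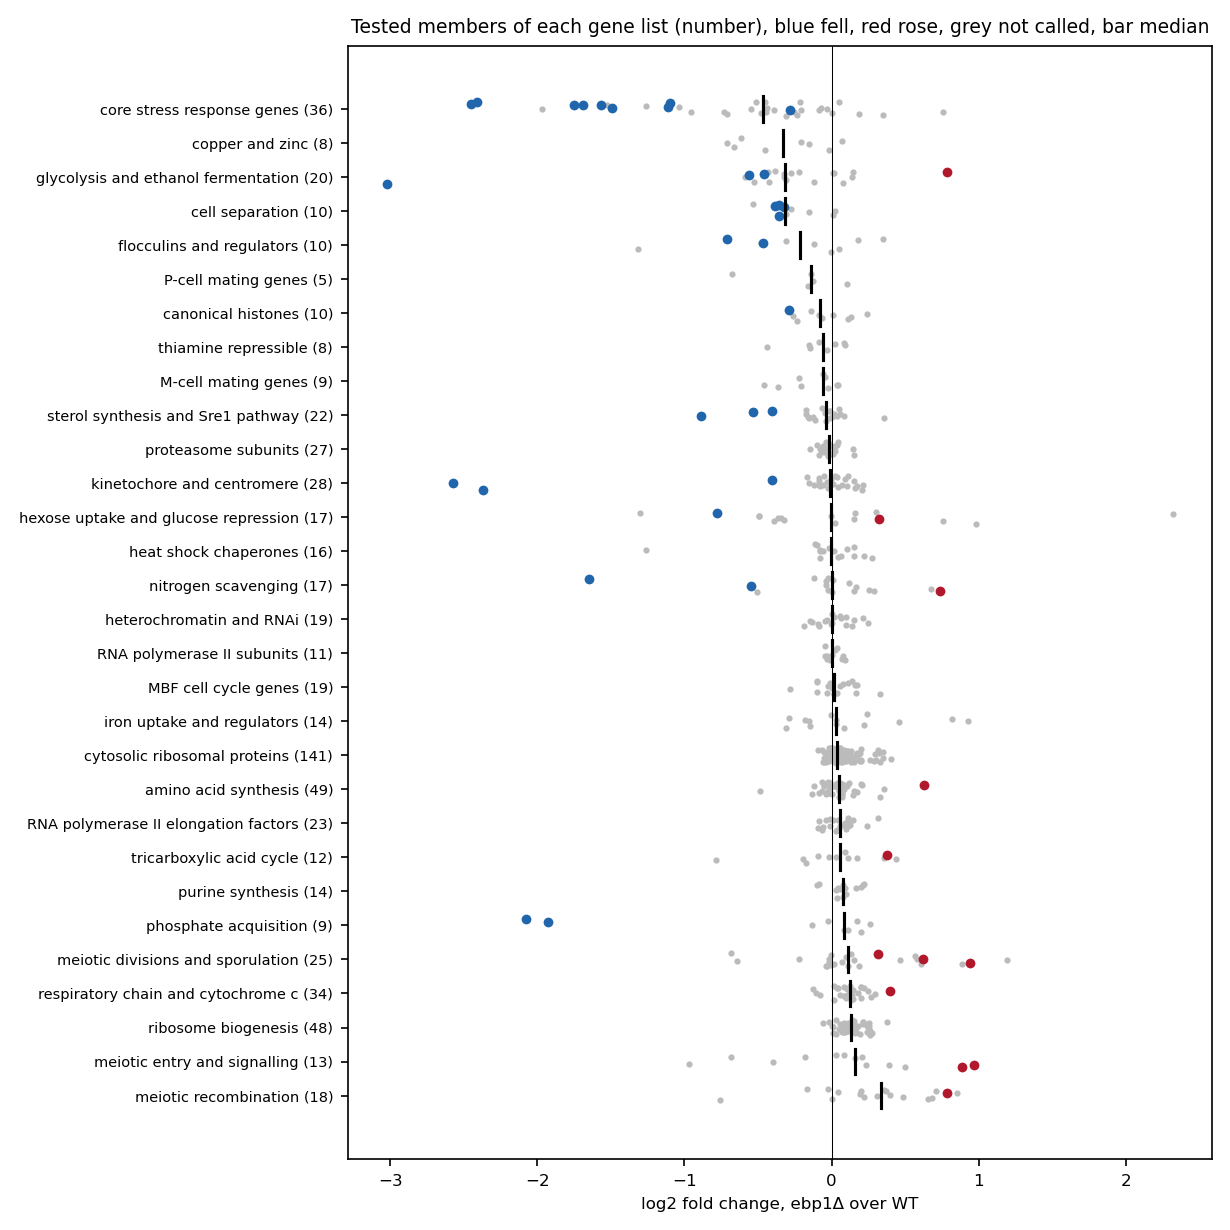
Each point is 1 tested gene of a list, with the number tested in brackets, on the log2 fold change of ebp1Δ over wild type. Blue points fell, red points rose and grey points were not called by limma, and black bars are medians, from -0.47 in the core stress response genes at the top to 0.33 in the meiotic recombination genes at the bottom.

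Genes for the use of glucose changed in both directions. Of 20 genes of glycolysis and ethanol fermentation, 3 fell and 1 rose, with a median of -0.32. Over all genes tested 2.74% fell and 0.925% rose. Under quantile normalization the median was -0.08 with 5 falls and 1 rise, and with the 6 libraries fitted alone 0 members were called. The hexokinase gene hxk2, for the enzyme that phosphorylates incoming glucose, was at 966, 879 and 942 scaled CPM in ebp1Δ, against 1358, 1347 and 1350.4 in eaf1Δ, 1318, 1319.99 and 1200.4 in wild type and 1016 and 1085 in ED666b wild type. All ebp1Δ libraries were below all others, and the log2 fold change was -0.46 (SE 0.06, limma adjusted p = 6.39e-04). The alcohol dehydrogenase gene adh1, for the last step of fermentation, fell to 5260.4, 4889.6 and 5099.9 in ebp1Δ, against 9065, 7741 and 6037 in wild type (-0.56, limma adjusted p = 0.0452), a call that held in 1 of the 6 fits that left out 1 library. The enolase gene eno102 was at 2.21, 0.809 and 3.29 in ebp1Δ, against 16.6, 11.1 and 14.4 in eaf1Δ, 16.1, 11.7 and 60.2 in wild type and 5.003 and 10.8 in ED666b wild type. Its fold change (-3.02, SE 0.57, limma adjusted p = 0.00928) includes wild-type replicate 3, which was far above all other libraries, and without it the value was -2.34 (limma adjusted p = 0.0162). The pyruvate decarboxylase gene pdc201, which feeds the same pathway, rose to 10.3, 9.98 and 12.3 in ebp1Δ, against 6.68, 4.61 and 6.496 in wild type (0.79, limma adjusted p = 0.0038). Without wild-type replicate 3 the list gave 11 falls and 1 rise, with a median of -0.47. The genes added were gpm1, pyk1, adh4, pgk1, pfk1, fba1, tdh1 and tpi1, with log2 fold changes from -0.78 in tdh1 to -0.39 in tpi1.

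Hexose uptake turned on the same library. Of 17 genes of hexose uptake and glucose repression, 1 rose and 1 fell in the fit with all libraries, beside 0.925% and 2.74% of all genes tested. The zinc finger factor gene rst2, an activator of glucose-repressed genes, was at 147, 152 and 147 scaled CPM in ebp1Δ, against 117, 128 and 112 in wild type (0.32, limma adjusted p = 0.0136), and the transporter gene ght8 fell to 605, 579 and 613 in ebp1Δ, against 1229, 1197 and 740.2 in wild type (-0.78, limma adjusted p = 0.0375). The ght8 call held in 1 of the 6 fits that left out 1 library. The gene ght5, for the main high-affinity glucose transporter, was chosen after its values were seen. It was at 1089, 975 and 1031 in ebp1Δ, against 123, 77.9 and 76.99 in eaf1Δ, 129, 70.8 and 948 in wild type and 95.1 and 159 in ED666b wild type. The 3 ebp1Δ libraries and wild-type replicate 3 were high, and all other wild-type and eaf1Δ libraries were low. The log2 fold change over wild type was 2.32 and was not called (SE 0.67, limma adjusted p = 0.0865). Without wild-type replicate 3 it was 3.42 (limma adjusted p = 6.48e-05), and against eaf1Δ it was 3.49 (limma adjusted p = 0.0122). In that fit without replicate 3, ght3 (1.70), ght1 (1.43) and ght4 (0.96) were called as higher too, so that 5 members of the list rose and 1 fell.

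Called genes of cell separation all fell, by small amounts. At the end of the cell cycle, glucanases and other proteins dissolve the septum between daughter cells. Of 10 genes tested, 4 fell and 0 rose, with a median of -0.32. In 7 of them every ebp1Δ library lay below every wild-type library. Over all genes tested 2.74% fell and 9.69% lay below in this way. The gene agn1, for the glucanase that digests the septum edging, was at 165, 154 and 176 scaled CPM in ebp1Δ, against 149, 151 and 131 in eaf1Δ, 229.9, 216 and 201 in wild type and 212 and 192 in ED666b wild type. The gene mid2, for an anillin that organises septins, was at 448, 419 and 424 in ebp1Δ, against 446, 433 and 415 in eaf1Δ, 544, 525 and 546 in wild type and 525 and 577 in ED666b wild type. In both genes the 2 deletions lay below all wild-type libraries and near each other. The log2 fold changes of ebp1Δ over wild type were -0.38 (SE 0.08, limma adjusted p = 0.0175) and -0.32 (SE 0.06, limma adjusted p = 0.0112), and the chitin synthase regulator gene cfh4 (-0.36) and rng9 (-0.36) fell likewise. Calls of agn1, mid2 and cfh4 held in 4, 5 and 3 of the 6 fits that left out 1 library, and 0 genes of the list were called with the 6 libraries fitted alone. The endoglucanase gene eng1 was at 301, 308 and 349 in ebp1Δ, against 373, 379.9 and 223 in wild type, and was not called (0.01, limma adjusted p = 0.984), with wild-type replicate 3 the lowest.

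In 4 other lists that touch the cell surface, chromosomes and sterols, 1 to 3 members fell and 0 rose by limma. Over all genes tested 2.74% fell. Of 10 flocculins and their regulators, which make cells adhere, mbx2 (-0.71, limma adjusted p = 0.00436) and pfl7 (-0.46, limma adjusted p = 0.0173) fell, with a median of -0.21, and -0.38 without wild-type replicate 3. Both were lower than in eaf1Δ as well (-1.07 and -0.45), and the call of pfl7 against wild type held in 3 of the 6 fits that left out 1 library. Of 28 genes listed under kinetochore and centromere 3 fell, which were abp2, cnp3 and spc24 of the Ndc80 complex (-0.41, limma adjusted p = 0.0097), with a median of -0.01. Of these, abp2 was described above by its binding to replication origins, and it shares 1 run with cnp3. The list does not hold every kinetochore gene: cnl2 (0.30, limma adjusted p = 0.0196) and fta6 (0.63, limma adjusted p = 0.0173), found outside it after their values were seen, rose. Of 10 canonical histone genes the H3 gene hht1 fell, to 791, 736 and 748 scaled CPM in ebp1Δ, against 888, 912 and 979 in wild type (-0.29, limma adjusted p = 0.0142), but no histone gene was called under column-sum scaling or quantile normalization. Of 22 genes of sterol synthesis and the oxygen-sensing factor Sre1, 3 fell. These were erg1 (limma adjusted p = 0.00765), the sterol desaturase gene erg31 (-0.88, limma adjusted p = 0.0131) and the haem synthesis gene hem13 (-0.53, limma adjusted p = 0.0237). The erg1 transcript was at 192, 178 and 188 in ebp1Δ, against 268, 281 and 265 in eaf1Δ and 273, 232 and 234 in wild type, and erg31 was at 146, 94.9 and 109.98 in ebp1Δ, against 245, 239 and 184 in eaf1Δ and 229, 201 and 211 in wild type. In these 2 genes eaf1Δ overlapped wild type while ebp1Δ was below both. The calls of hht1, erg31 and hem13 held in 4 of the 6 fits that left out 1 library.

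Some meiotic genes rose, from low levels, and others fell. In growing cells meiotic transcripts are kept scarce by silence of their genes and by removal of their RNA. The forkhead factor gene mei4, which drives the middle phase of meiosis, was at 16.2, 26.03 and 22.3 scaled CPM in ebp1Δ, against 10.7, 15.6 and 19.3 in eaf1Δ, 10.02, 8.92 and 12.3 in wild type and 6.98 and 6.97 in ED666b wild type. The gene spo6, for the regulatory subunit of a kinase needed in the second meiotic division, was at 17.5, 16.2 and 16.9 in ebp1Δ, against 10.2, 10.9 and 10.1 in eaf1Δ, 9.72, 10.9 and 11.2 in wild type and 9.16 and 9.59 in ED666b wild type. For mei4 the ebp1Δ and eaf1Δ libraries overlapped, whereas for spo6 only ebp1Δ was raised. The log2 fold changes over wild type were 0.97 (SE 0.20, limma adjusted p = 0.0191) and 0.63 (SE 0.13, limma adjusted p = 0.019), and spo6 was also higher than in eaf1Δ (0.64, limma adjusted p = 0.0172). Over all genes tested 0.925% rose and 2.74% fell. Of 13 genes of meiotic entry, 2 rose (mei4 and mat2-Pc) and 0 fell, with a median of 0.16. The mat2-Pc value is uncertain because near-identical copies of this mating cassette gene share reads. Of 18 meiotic recombination genes 1 rose, rec25 of the linear elements on which crossovers form (0.79, limma adjusted p = 0.00683), and 0 fell, with a median of 0.33 and 15 members positive. Of 25 genes of the meiotic divisions and sporulation, 3 rose and 0 fell, with a median of 0.11: spo6, mug146 (0.94) and mes1, an inhibitor of the anaphase-promoting complex between the divisions (0.32). The calls of mei4, spo6, mes1 and mat2-Pc each held in 2 of the 6 fits that left out 1 library, that of mug146 in 4 and that of rec25 in all 6. Without wild-type replicate 3 the 3 lists gave 3, 1 and 6 rises and 0 falls, with medians of 0.20, 0.53 and 0.25. By edgeR each list had 1 rise, and with the 6 libraries fitted alone they had 0, 0 and 1. By DESeq2 they had 2, 2 and 4 rises and 1, 0 and 1 falls. Outside the lists, and found after their values were seen, mug134 (-0.60), mug86 (-0.73) and mug124 (-0.52), named for their induction in meiosis, and fzr2 (-0.55), for a protein of the fizzy-related family, fell. The summed level of the markers rec8, mei4, spo6 and rec25 was 48.1 to 67.4 in ebp1Δ and 27.8 to 36.7 in wild type. Because mei4, spo6 and rec25 are the called genes above, this sum adds nothing separate to their calls. The ranges of rec8 overlapped (5.78 to 13.9 in ebp1Δ and 3.87 to 7.63 in wild type). The part of cells in meiosis in these values was not tested.

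Respiratory genes gave 1 call, a share no higher than the 3.67% over all genes, and small positive values. Of 34 genes of the respiratory chain and cytochrome c, 31 had a positive log2 fold change and the median was 0.13. The called gene was cyc1, for cytochrome c, at 1004, 1055 and 1021 scaled CPM in ebp1Δ, against 786, 820.04 and 838 in eaf1Δ, 819, 800.3 and 722 in wild type and 654 and 618 in ED666b wild type. It was higher than in every other library (0.40 over wild type, SE 0.08, limma adjusted p = 0.00988, and 0.33 over eaf1Δ, limma adjusted p = 0.0308). In 18 of the 34 genes every ebp1Δ library lay above every wild-type library, as in 7.73% of all genes tested. Of 12 genes of the tricarboxylic acid cycle, mdh1 for malate dehydrogenase rose to 339.7, 289.7 and 336, against 228, 242 and 272 in wild type (0.38, limma adjusted p = 0.0284), a call that held in 2 of the 6 fits that left out 1 library. Without wild-type replicate 3, 3 genes of the cycle rose and 2 fell. The mitochondrial ADP/ATP carrier gene anc1, which lies outside the lists and was chosen after its values were seen, rose to 1038, 1091 and 1054, against 756, 797 and 821 in eaf1Δ and 863, 754 and 691 in wild type (0.47, limma adjusted p = 0.00546).

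Nitrogen and amino acid genes gave single changes. The gene gdh1, for the NADP-dependent glutamate dehydrogenase that fixes ammonium, was at 1142, 1073 and 1329 scaled CPM in ebp1Δ, against 762, 799 and 803 in eaf1Δ, 751, 789 and 739 in wild type and 537 and 706 in ED666b wild type. Only the ebp1Δ libraries were high (0.63, SE 0.12, limma adjusted p = 0.00912). The gene was the 1 call among 49 amino acid synthesis genes, a share no higher than the 3.67% over all genes, and their median was 0.05. Without wild-type replicate 3, 1 of the 49 rose and 6 fell, with a median of -0.13. The ammonium transporter gene amt1 was at 40.97, 50.6 and 60.4 in ebp1Δ, against 36.3, 41.3 and 47.9 in eaf1Δ, 31.1, 26.3 and 31.6 in wild type and 56.3 and 48.7 in ED666b wild type. It rose over wild type (0.74, SE 0.14, limma adjusted p = 0.00987), yet its ebp1Δ range overlapped that of ED666b. Of 17 nitrogen scavenging genes amt1 rose, and the proline permease gene put4 (-0.55) and ecl3 (-1.65) fell. Over all genes tested 0.925% rose and 2.74% fell. Without wild-type replicate 3 the list had 3 rises and 1 fall, with isp5 (1.28) and isp4 (0.45) called as higher and put4 not called. With the 6 libraries fitted alone, or the 9 ED666 libraries, 0 members were called. The put4 call held in none of the fits that left out 1 library, and that of ecl3 in 3 of 6.

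Many programmes showed no call. By limma 0 members rose or fell among 141 cytosolic ribosomal protein genes (median 0.04), 48 ribosome biogenesis genes (0.13), 27 proteasome subunits (-0.02), 23 RNA polymerase II elongation factors (0.06), 11 subunits of the polymerase itself (0.00), 19 heterochromatin and RNAi genes (0.00) and 19 genes of the G1/S factor MBF (0.02). The same count of 0 held for 14 purine synthesis genes (0.08), 14 iron genes (0.03), 8 copper and zinc genes (-0.33), 8 thiamine-repressible genes (-0.06), 9 M-cell genes (-0.05), 5 P-cell genes (-0.14), 4 subtelomeric helicase and SPAC750 genes (-0.16) and 2 tested genes of the SPAC27D7 cluster (-0.90). Over all genes 1049 passed an unadjusted p of 0.05. For ribosome biogenesis 46 of 48 members were positive, but without wild-type replicate 3 the median was -0.01. By edgeR all of these lists had 0 calls, and by DESeq2 the MBF list had 1 rise and 1 fall, the elongation factors 1 rise, and the copper and zinc, the subtelomeric and SPAC750 and the SPAC27D7 genes 1 fall each. Without wild-type replicate 3 the iron genes had 2 rises, the MBF genes and elongation factors 1 rise each, and the purine and the copper and zinc genes 1 fall each. The medians without it were -0.20 for copper and zinc, -0.46 for the SPAC27D7 genes, -0.06 for the subtelomeric and SPAC750 genes, 0.13 for iron, -0.03 for the P-cell genes, and, with turned sign, -0.07 for purine synthesis and -0.05 for ribosomal proteins.

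RNAs named as antisense to ribosomal protein genes were grouped after their values were seen. Of 9 such RNAs 5 fell and 0 rose, with a median of -0.76. Their summed level was 37.6, 46.7 and 36.9 scaled CPM in ebp1Δ, against 41.7, 47.4 and 46.1 in eaf1Δ, 53.1, 73.9 and 66.7 in wild type and 22.3 and 23.4 in ED666b wild type. The ebp1Δ sums were thus below those of wild type and above those of ED666b wild type, the same strain in another set, so that the direction depends on which wild type is taken. Of the 559 other antisense RNAs tested 13 rose and 32 fell, with a median of -0.04. Among noncoding RNAs that rose, ayr1-antisense-1 was at 42.8, 49.9 and 49.3 in ebp1Δ, against 28.7, 29.2 and 30.2 in eaf1Δ, 20.8, 21.7 and 34.3 in wild type and 19.1 and 20.6 in ED666b wild type (0.89, SE 0.15, limma adjusted p = 0.00471). The gcv1-antisense-1 RNA was at 9.35, 10.7 and 9.28 in ebp1Δ, against 5.44, 4.13 and 3.82 in eaf1Δ and 4.25, 3.72 and 6.21 in wild type (0.93, limma adjusted p = 0.00653). Both lay above every library of the other groups. Among those that fell, end4-antisense-1 was at 2.71, 1.75 and 1.29 in ebp1Δ, against 10.2, 7.14 and 7.98 in eaf1Δ and 11.2, 12.04 and 7.34 in wild type (-1.95, limma adjusted p = 1.34e-04), and prl67 was at 0.984, 1.21 and 0.714 in ebp1Δ, against 5.998, 3.57 and 3.597 in eaf1Δ and 7.14, 6.39 and 7.91 in wild type (-2.05, limma adjusted p = 1.27e-05).

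**Figure D5:**
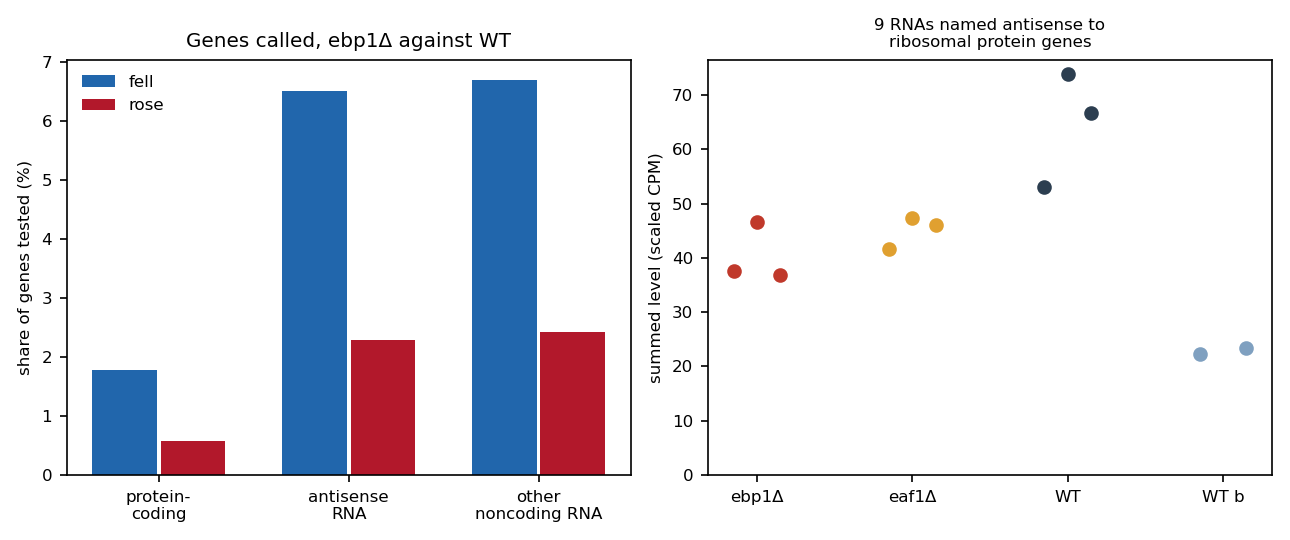
Left, the share of tested genes of each class that fell or rose by limma in ebp1Δ against wild type, in percent. Under quantile normalization 23 antisense RNAs rose and 30 fell, in place of the 13 and 37 drawn. Right, the summed level of the 9 RNAs named antisense to ribosomal protein genes in each library, in scaled CPM, for ebp1Δ, eaf1Δ and wild type of ED666 (WT) and ED666b wild type (WT b), where ebp1Δ points lie between 36.9 and 46.7.

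Among the genes named by rule for the depth of their fall, pof15 and pex7 belong to neither a list nor a run. The F-box protein gene pof15 was at 16.7, 17.7 and 15.998 scaled CPM in ebp1Δ, against 50.6, 36.4 and 41.8 in eaf1Δ, 56.03, 71.2 and 74.8 in wild type and 71.6 and 100.3 in ED666b wild type. The gene pex7, for the receptor that carries a class of enzymes into peroxisomes, was at 369, 247 and 199 in ebp1Δ, against 669, 381 and 385 in eaf1Δ and 924, 651 and 1746 in wild type. Each fell without overlap with wild type, evenly in pof15 (-1.93, SE 0.15, limma adjusted p = 1.11e-05) and unevenly in pex7 (-1.95, SE 0.39, limma adjusted p = 0.0144), where wild-type replicate 3 was highest. A carboxylic acid transporter gene outside the lists, SPAC11D3.18c, rose and was at 54.3, 52.9 and 55.99 in ebp1Δ, against 44.2, 47.4 and 35.9 in eaf1Δ and 26.7, 33.01 and 25.8 in wild type (0.91, limma adjusted p = 0.0367), a call that held in 1 of the 6 fits that left out 1 library. Outside the rule, and chosen after their values were seen, the malic acid transporter gene mae1 (-0.98) and the phospholipase gene plb2 (-1.16) fell, and mcs6, for the kinase of the TFIIH complex (0.40), and the mitotic entry kinase gene cdr2 (0.25) rose.

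The 2 deletions were then set against each other, a comparison that shares its ebp1Δ libraries with the one against wild type. By limma 183 of 6160 genes differed between ebp1Δ and eaf1Δ (2.97%), 38 higher in ebp1Δ (0.617%) and 145 lower (2.35%). Under quantile normalization these were 63 and 132. The total was 114 and 103 without ebp1Δ replicate 2 or 3, and 105 and 116 without eaf1Δ replicate 1 or 2. Of the 169 genes that fell against wild type, 81 were also lower than in eaf1Δ and 0 were higher. Of the 57 that rose, 16 were also higher than in eaf1Δ, and 1, SPBC19C2.10-antisense-1, was lower. Because of the shared libraries these counts are not independent. A further 85 genes differed from eaf1Δ and were not called against wild type. Among list members these include ght5, described above, and SPAC27D7.09c, for a But2 family protein, at 59.5, 24.8 and 51.9 scaled CPM in ebp1Δ, against 299, 255 and 165 in eaf1Δ and 93.5, 92.04 and 234 in wild type (-2.42 over eaf1Δ, limma adjusted p = 0.00933). They also include the aldo/keto reductase gene SPAC750.01, at 7.87, 9.04 and 6.14 in ebp1Δ, against 1.12, 1.56 and 2.02 in eaf1Δ and 17.5, 13.7 and 10.7 in wild type (1.76 over eaf1Δ, limma adjusted p = 0.00128). In the But2 family gene eaf1Δ overlapped wild type and ebp1Δ was below both, and in the reductase gene eaf1Δ was the lowest group. The respiratory list held 3 genes higher than in eaf1Δ, and the fermentation list 4 lower and 1 higher.

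The ED666b wild type gave a second level to read these genes against, though its libraries are labelled as another set, are deeper, and were not tested against ebp1Δ. Of the 169 genes that fell, all ebp1Δ libraries were below both ED666b wild-type libraries in 150 and above both in 10. Those 10 were all antisense RNAs, of btf3, rpl1801, mcp60, rpl2001, rpl2702, SPAC6F6.03c, ebp2, hhf3, rps1601 and ypt3, named after their values were seen. Of the 57 that rose, ebp1Δ was above both in 42 and below both in 1, the kinetochore gene cnl2. The share of all tested genes that lie above or below both ED666b libraries was not counted. These numbers therefore cannot be read as a second test of the calls.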

How the data were processed

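Polyadenylated RNA was sequenced in 17 libraries, of which 3 ebp1Δ, 3 wild-type and 3 eaf1Δ libraries of strain ED666 enter the comparisons. The submitters' processing notes name TopHat2 2.1.1, Bowtie2 2.2.9, SAMtools 1.3.1, MACS2 and edgeR and the build ASM294v2, without saying which made the expression table, and the sources used here name neither the counter nor its use of strand. The deposited table holds a CPM-like signal per gene and library, called scaled CPM. Each library's values were found to be whole reads times 1 constant (100% of values within 0.01 of a whole number), so read counts were recovered from them. The deposited RPKM values were used for gene lengths only, and the log2 fold change and p-value columns that the authors computed and deposited were not used.

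Genes at 1 scaled CPM or more in 2 or more libraries (6160 of 7013) were tested with limma 3.58.1 in R 4.3.3 on log2(scaled CPM + 1), with 1 mean per group over all 17 RNA libraries, which share 1 estimate of the spread (10 residual degrees of freedom), and Benjamini-Hochberg adjustment at 0.05. Fold changes on this scale understate those of low genes. Because the values are scaled reads and not raw counts, the log-scale test was kept as the main one, and edgeR 4.0.16 and DESeq2 1.42.0 on the recovered reads served as alternatives. The other alternatives changed scaling, pseudocount, filter and libraries, or added a replicate block. The limma fit, and not edgeR, DESeq2 or the block, was first run on simulated data. Those data gave every gene the same dispersion and held no library that stood apart.

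Named genes were the 20 that fell most and the 15 that rose most among called genes whose groups did not overlap, up to 5 called members of each gene list, the neighbours of ebp1, and runs of called neighbours. 1 member of the cell separation list is not reported here. The lists and comparisons were chosen with earlier results of these data known. The column code for ebp1Δ is in no label and was assigned by the series' description. Of 7013 identifiers 6845 matched the reference, which is of build ASM294v3, so it served for names, classes and gene order, and no coordinate or sequence is given. Promoter motifs were not analysed here.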

Additional observations from a re-analysis of the deposited data

How the results depend on the processing

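Of 118 named genes 76 were called. None of those 76 changed direction under any alternative run, and 21 kept the call under every alternative and 43 with each library left out in turn. Calls were lost most with the 6 compared libraries fitted alone (49 of 76), then without ebp1Δ replicate 2 (30) and with the 9 ED666 libraries (26). The count of 226 genes for ebp1Δ against wild type was 65 with the 6 libraries and 134 with the 9, of which 59 and 118 were shared, and 134 to 368 with 1 library left out. It was 332 by DESeq2, 179 by edgeR, and 207 to 236 under the other alternatives without a block. The count of 183 against eaf1Δ was 321 with the 6 libraries alone, 288 by DESeq2 and 103 to 152 with 1 library left out. The cause of these shifts was not tested. The ebp1 fold change stayed between -2.87 and -2.35.

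With the replicate number as a block, 340 genes were called against wild type and 285 against eaf1Δ. Deviations from the group means of same-numbered libraries correlated at -0.0379, 0.119 and 0.00388 between ebp1Δ and wild type and at 0.243, 0.113 and -0.219 between ebp1Δ and eaf1Δ. In each pair of groups 1 of 3 ebp1Δ libraries correlated best with its own number. The labels do not say that a number marks a shared culture or day, so the block was not used for the results above, and whether libraries share a batch was not tested.

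Among the 118 named genes only, those that were not called and turned sign with 1 library left out had these lowest and highest log2 fold changes: map1 -1.07 and 0.036, SPAC27D7.11c -0.58 and 0.19, SPAC652.01 -0.18 and 0.015, puf4 -0.010 and 0.15, SPAPB1E7.01c -0.0041 and 0.21, ade8 -0.044 and 0.37, leu1 -0.086 and 0.20, ell1 -0.061 and 0.17 (-0.0024 by DESeq2), eaf1 -0.079 and 0.11, ade6 -0.12 and 0.13, and SPNCRNA.899 -0.13 and 0.29. Depth limits calls for genes near 1 scaled CPM, where 3 reads are 0.369 to 0.456.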
